A study of Mus musculus with 4 samples.

Results

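The genes described here are 42 genes of the lysosome and of autophagy, taken by symbol from the 31829 gene names on a mouse expression array. They comprise 20 lysosomal enzymes (7 glycosidases, 9 cathepsins and 4 others, among them the activator Psap), 4 lysosomal membrane proteins, 2 transcription factors and 16 genes of the autophagy machinery. The symbol itself was on the array for 40 of them, and the transcription factors Tfeb and Tfe3, which the array lists under older symbols, were found through the RefSeq accession of their probes. The rule uses symbols and no measured value, though the list was drawn up with earlier results of these data known. A probe was called measured where the scanner software marked its spot as well above background, and 41 of the 42 genes were measured on all 4 arrays. The exception was Atg4a, which was well above background on none (signals of 21, 12, 15 and 23 against a 75th percentile of 1819 or more).

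The lysosome is the acidic organelle in which hydrolases break down proteins, glycans and lipids. Autophagy brings it cytoplasmic material: a kinase complex starts the process, a lipid kinase complex nucleates a membrane, and ubiquitin-like proteins of the LC3 and GABARAP families are conjugated to that membrane before it fuses with the lysosome. TFEB and TFE3 are transcription factors that activate genes of both systems, and the activity of lysosomal beta-galactosidase is a common stain for senescent cells, a state that fibroblasts can enter after DNA damage.

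The samples were fibroblasts of mouse embryos (MEFs) of the genotypes p53+/+ (wild-type, WT) and p53-/-, each cultured without and with doxorubicin, a topoisomerase II poison that breaks DNA. The p53-/- MEFs lack the tumor suppressor p53, a transcription factor activated by such damage. Total RNA was labeled with Cy3 and hybridized to one-color Agilent arrays, 1 array for each of the 4 conditions, all on 1 slide. Dose and time are not given in the labels for these samples, nor are the number of embryos or cultures behind a sample and the strain.

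With 1 array per condition no difference had a replicate check, and the condition cannot be told apart from where its array lay on the slide. The values below are therefore descriptions without a test, and "rose" or "fell" means at least 2-fold, a rule of size. A relative signal is the intensity of a gene's brightest probe divided by the 75th percentile of its array, and ratios are log2 of relative signals. The 75th percentiles were signals of 1819 to 2421, and 56.9 to 62.9% of the probes were well above background. Repeat spots of 248 probes had a median SD that gives 0.08 for a log2 ratio and 0.12 for a difference of ratios. This covers spots within an array and not cultures, and noisier probes exceed it. The Trp53 probe, for the gene that was targeted, had signals of 1228 and 3442 in WT without and with doxorubicin, and of 442 and 543 in p53-/- MEFs. Whether that probe lies in the deleted part was not analysed here. Of 10 fibroblast markers, 10 were well above background on every array, whereas Epcam of the 4 epithelial and Cdh5 of the 4 endothelial markers were on none. Krt8, Krt18, Pecam1 and Kdr of these lists were well above background on all 4 arrays, and Krt18 had a log2 ratio for doxorubicin of 0.91 in WT and 1.91 in p53-/- MEFs. A signal from bulk RNA does not tell fewer cells of a type apart from less RNA per cell.

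The first question was how the enzymes of the lysosome and the autophagy machinery changed under doxorubicin with p53 present. In WT MEFs, 7 of the 41 measured genes rose, against 11.0% of all genes measured in this comparison, and 4 fell, against 10.4%. The genes that rose were the proteases Ctsf, Tpp1, Ctsd and Ctsh and the autophagy genes Dram1, Ulk1 and Map1lc3a. Those that fell were Ctsk, Ctsa and Neu1 among the enzymes and Uvrag in the machinery. The median log2 ratio was -0.01 for the 20 enzymes, which spread from -2.15 to 3.76, and 0.46 for the 15 measured machinery genes, 12 of which were above 0. The median over all genes was 0.01, with 18 of the 41 genes and 49.3% of all genes below 0. In p53-/- MEFs 3 of the 41 genes rose, against 9.24% of all genes, and 3 fell, against 6.89%. None of the 20 enzymes rose there, and Atg12, Map1lc3b and Sqstm1 rose in the machinery. Scaling to the array median took Map1lc3b (0.87) and Sqstm1 (0.80) under 2-fold here, and Ulk1 (0.93) and Map1lc3a (0.90) in WT MEFs. The enzyme median was 0.04 and the machinery median 0.37, with 0.00 for all genes; scaling to the array median gave -0.26, 0.071 and -0.30. Below 0 there were 19 of the 41 genes and 49.9% of all genes. Of the 41 genes, 33 were above the 75th percentile on all 4 arrays. Among all 7220 genes that bright, 5.82% rose and 6.54% fell in WT MEFs. In p53-/- MEFs 3.21% of them rose and 4.60% fell.

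**Figure D1:**
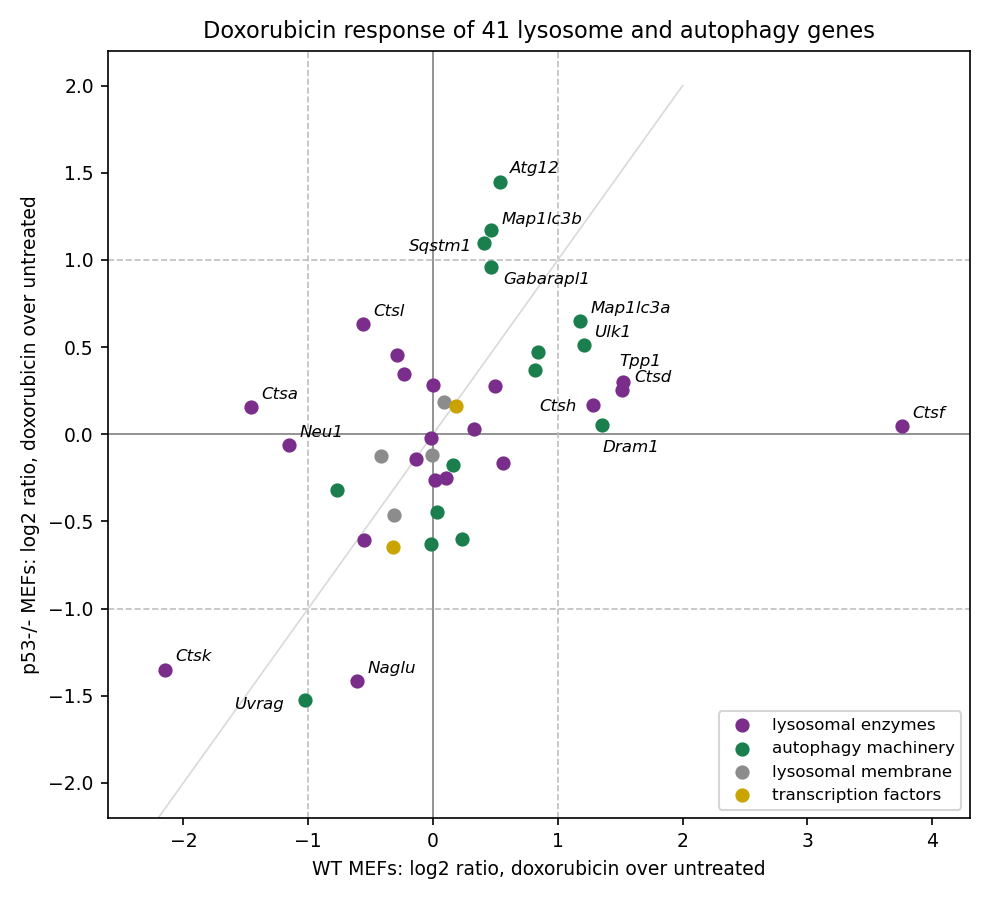
Each point is 1 of 41 measured genes, placed by its log2 ratio of doxorubicin-treated over untreated MEFs in WT (x axis) and in p53-/- (y axis), with 1 array per condition. Dashed lines mark 2-fold and the diagonal marks equal ratios. Ctsf lies farthest to the right at 3.76 in WT and 0.05 in p53-/- MEFs, and no gene lies beyond the upper 2-fold line in both.

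The spread of the responses differed between the classes. The SD over the 20 enzymes was 1.26 in WT and 0.53 in p53-/- MEFs, while over the 15 machinery genes it was 0.67 and 0.82. Over all 16538 genes it was 0.96 and 0.80. Ctsf alone, at 3.76, weighs on the SD of the enzymes in WT. The interquartile range, on which a single gene weighs less, was 1.07 and 0.47 for the enzymes. It was 0.73 and 1.19 for the machinery and 0.90 and 0.80 for all genes. No member rose in both genotypes, where 3.97% of all genes did. Of the 41 members 2, Ctsk and Uvrag, fell in both, as did 550 of all 16538 genes. The responses of the genotypes differed by 2-fold or more for 7 of 20 enzymes (35%), 1 of 15 machinery genes (6.67%) and 18.2% of all genes. Across genes, which are not independent replicates, Pearson's r between the responses in WT and p53-/- MEFs was 0.378 over the 20 enzymes, 0.621 over the 15 machinery genes and 0.485 over all 16538 genes. The pair of responses shares no array, but all genes share the same 4 arrays.

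Ctsf, a papain-like cysteine protease, had the largest change of the group. Its relative signal was 0.69 without and 9.33 with doxorubicin in WT, and 0.289 without and 0.299 with it in p53-/- MEFs. The array of doxorubicin-treated WT MEFs thus stood alone above the others. The log2 ratio for doxorubicin was 3.76 in WT (13.5-fold) and 0.05 in p53-/- MEFs, and 86 of 17546 genes had a higher one in WT. The difference between these ratios was 3.71, which 41 of 16538 genes exceeded. The probe lies on chromosome 19 from 4860454 to 4860513 (mm9, as for all probe positions here).

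Ctsd, the main aspartic protease of the lysosome, had relative signals of 40.9 and 117 in WT without and with doxorubicin and of 23.6 and 28.1 in p53-/- MEFs. It rose by a log2 ratio of 1.51 in WT, against 0.25 in p53-/- MEFs. Its dimmer probe gave 1.35 and -0.10. Tpp1, a serine protease that trims tripeptides from protein ends, had relative signals of 2.89 and 8.32 in WT and of 1.39 and 1.71 in p53-/- MEFs. Its log2 ratios were 1.52 and 0.30. Ctsh, an aminopeptidase of the cathepsin family, went from 3.04 to 7.4 in WT and from 2.28 to 2.56 in p53-/- MEFs, with log2 ratios of 1.28 and 0.17. For these 3 proteases, as for Ctsf, the doxorubicin-treated WT array was the highest and both p53-/- arrays were below both WT arrays.

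Other cathepsins went the opposite way in WT MEFs. Ctsk, the collagen-degrading protease best known from osteoclasts, had relative signals of 11.3 and 2.54 in WT and of 3.84 and 1.51 in p53-/- MEFs. It fell in both genotypes, with log2 ratios of -2.15 and -1.35. Of the 10 fibroblast markers 4 fell in WT MEFs, among them the matrix genes Lum (-4.81) and Dcn (-1.30), while Col1a1 was at 0.26, Fn1 at -0.16 and Col1a2 at -0.48. In p53-/- MEFs Lum was at -2.34 and Dcn at 0.30, and the part of these markers in the Ctsk values was not tested. Ctss, whose probe lies next to that of Ctsk on chromosome 3 (95360245 to 95360304 against 95313165 to 95313224), had log2 ratios of -0.23 and 0.35. Ctsl, a broad endopeptidase, went from 45.9 to 31.1 in WT and from 29.5 to 45.7 in p53-/- MEFs, log2 ratios of -0.56 and 0.63 with opposite signs. Ctsb and Ctsz stayed under 2-fold, at 0.50 and 0.28 for Ctsb and -0.14 in both genotypes for Ctsz.

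Ctsa, Neu1 and Glb1 encode the carboxypeptidase, the sialidase and the beta-galactosidase that form a complex in the lysosome. Ctsa had relative signals of 41.4 and 15.1 in WT and of 26.7 and 29.8 in p53-/- MEFs. It fell in WT with a log2 ratio of -1.46 and was at 0.16 in p53-/- MEFs, but its dimmer probe gave -0.73 and -0.05, so the probes differ on whether the fall reached 2-fold. Neu1 had relative signals of 6.88 and 3.09 in WT and of 4.62 and 4.42 in p53-/- MEFs, log2 ratios of -1.15 and -0.06. For both genes the doxorubicin-treated WT array was the lowest. Glb1, the gene behind the senescence stain, had 3.27 and 3.24 in WT and 2.02 and 1.99 in p53-/- MEFs. Its log2 ratios of -0.01 and -0.02 were within the spread of repeat spots, and its levels separated the genotypes and not the treatments.

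The other glycosidases stayed under 2-fold in WT MEFs. Naglu, which acts in heparan sulfate breakdown, had relative signals of 1.27 and 0.835 in WT and of 0.739 and 0.277 in p53-/- MEFs, and it fell in p53-/- MEFs with a log2 ratio of -1.41 against -0.61 in WT. Hexa, Gaa, Gla and Gusb, which cleave gangliosides, glycogen, galactosylated lipids and glucuronides, ranged from -0.55 to 0.56 in WT and from -0.61 to -0.17 in p53-/- MEFs. All 7 glycosidases were below 0 in p53-/- MEFs, where 49.9% of all genes were. The ceramidase Asah1 had log2 ratios of -0.29 and 0.46 by its brighter probe and of 0.14 and 0.24 by the other. The sphingomyelinase Smpd1 was within 1.22-fold in either genotype, and Psap, the precursor of the saposins that present lipids to these enzymes, was at 0.33 and 0.03.

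**Figure D2:**
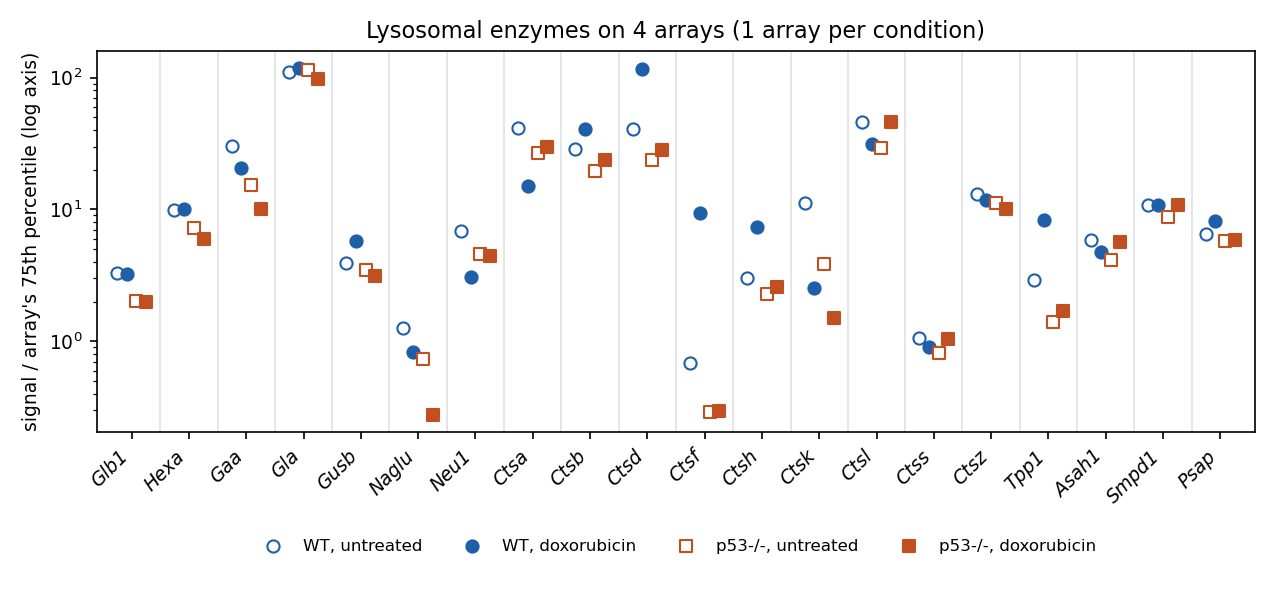
Relative signal (intensity divided by the array's 75th percentile, log axis) of the 20 lysosomal enzymes on the 4 arrays, 1 point per array with no error bar since each condition had 1 array. Circles are WT and squares p53-/- MEFs, open without and filled with doxorubicin. The filled circle stands alone at the top for Ctsd, Ctsf, Ctsh and Tpp1 and at the bottom for Ctsa and Neu1. Heights of different genes are not comparable, since each comes from its own probe.

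The lysosomal membrane proteins changed less than 2-fold in every ratio. Lamp1, a major glycoprotein of the lysosomal membrane, had relative signals of 85.7 and 91 in WT and of 68.6 and 77.9 in p53-/- MEFs, log2 ratios of 0.09 and 0.18. Cd63, a tetraspanin of late endosomes and lysosomes, was at -0.32 and -0.46, and the calcium channel Mcoln1 at -0.01 and -0.12. For Lamp2 the probes went against each other, with -0.42 and -0.12 by the brighter and 0.58 and 0.33 by the other.

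Neither transcription factor reached 2-fold. Tfeb had relative signals of 0.248 and 0.199 in WT and of 0.336 and 0.215 in p53-/- MEFs, log2 ratios of -0.32 and -0.65. In each genotype its level was lower with doxorubicin. Tfe3 had 6.41 and 7.27 in WT and 5.13 and 5.75 in p53-/- MEFs, log2 ratios of 0.18 and 0.16. Its dimmer probe gave 0.61 and 0.33. The array measures their RNA and not where the proteins lie in the cell, which is what is known to control them.

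Among the genes that start autophagy, Ulk1, the kinase at the head of the pathway, had relative signals of 5.88 and 13.6 in WT and of 4.91 and 6.99 in p53-/- MEFs. It rose in WT with a log2 ratio of 1.21 and was at 0.51 in p53-/- MEFs. Its paralog Ulk2 was below 0 in both, at -0.77 and -0.32. Dram1, a lysosomal membrane protein known as a p53 target that promotes autophagy, was dim. Its relative signal was 0.173 and 0.443 in WT and 0.143 and 0.148 in p53-/- MEFs, and it rose in WT with a log2 ratio of 1.36 against 0.05. The lowest of its signals, 269 in untreated p53-/- MEFs, was close to the brightest negative control spot of that array, 250.1.

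Becn1 and Uvrag encode parts of the lipid kinase complex that nucleates the membrane. Becn1 was at 0.82 and 0.37. Uvrag went from 6.59 to 3.23 in WT and from 7.86 to 2.73 in p53-/- MEFs and fell in both genotypes, with log2 ratios of -1.03 and -1.53. Both treated arrays were thus below both untreated arrays. Wipi1, which binds the lipid that this complex makes, was at 0.23 in WT and -0.60 in p53-/- MEFs.

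The conjugation genes attach the ubiquitin-like proteins to lipid. Atg12, itself a ubiquitin-like protein joined to Atg5, had relative signals of 3.97 and 5.76 in WT and of 2.95 and 8.05 in p53-/- MEFs. It rose in p53-/- MEFs with a log2 ratio of 1.45 and was at 0.53 in WT, and its other probe gave 1.16 and 0.77. The other conjugation genes stayed under 2-fold, the E2-like Atg3 at 0.84 and 0.47, Atg5 at 0.16 and -0.18, and the E1-like Atg7 at -0.01 and -0.63.

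The proteins that sit on the growing membrane, and the receptor that links cargo to them, were mostly higher with doxorubicin in both genotypes. In WT MEFs 0 of the 5 were below 0 (median 0.46), where 49.3% of all genes were, though Gabarap turned below 0 with array median scaling and by its other probe. In p53-/- MEFs 1 of 5 was below 0 (median 0.96), where 49.9% of all genes were. Map1lc3a, an LC3 protein, had relative signals of 3.07 and 6.95 in WT and of 2.72 and 4.26 in p53-/- MEFs, log2 ratios of 1.18 and 0.65. Map1lc3b, the LC3 most used as a marker of autophagosomes, had 7.45 and 10.3 in WT and 6.04 and 13.6 in p53-/- MEFs, log2 ratios of 0.46 and 1.17. Sqstm1 (p62), the cargo receptor, had 3.69 and 4.89 in WT and 2.63 and 5.64 in p53-/- MEFs, log2 ratios of 0.41 and 1.10. For Map1lc3a, Map1lc3b and Sqstm1 both treated arrays were above both untreated ones, with the highest value in WT for Map1lc3a and in p53-/- MEFs for the other two. Gabarapl1 followed the same order of treatments (0.47 and 0.96), and Gabarap did not (0.03 and -0.45).

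**Figure D3:**
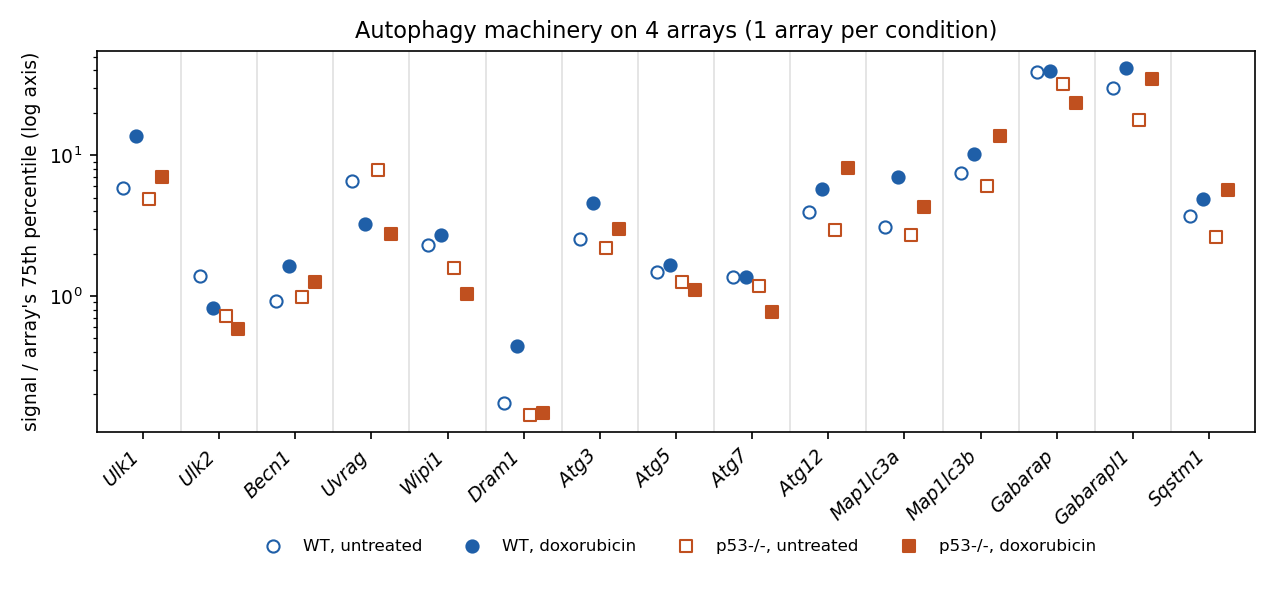
Relative signal (log axis) of the 15 measured genes of the autophagy machinery on the 4 arrays, drawn as for the enzymes with 1 array per condition and no error bar. Filled symbols lie above open ones in both genotypes for genes such as Ulk1, Becn1, Atg3, Atg12, Map1lc3a, Map1lc3b, Gabarapl1 and Sqstm1, and below them for genes such as Ulk2 and Uvrag.

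The next comparison set the genotypes side by side. Without doxorubicin, 37 of the 41 genes had a lower relative signal in p53-/- than in WT MEFs, where 50.3% of all genes did. The median log2 ratio was -0.38 over the 41 genes, -0.57 over the enzymes and -0.27 over the machinery. The 41 genes are mostly bright, 33 of them being above the 75th percentile on all arrays. Among all 7220 genes that bright, 58.1% were lower in p53-/- MEFs and the median was -0.07. Most of these differences were small: 3 of 41 genes were at least 2-fold lower, against 2.62% of all genes, namely Ctsk (-1.55), Ctsf (-1.25) and Tpp1 (-1.06). None was at least 2-fold higher, against 2.15%. The 19 of 20 enzymes below 0 left out Gla, at 0.07, and Tfeb was the highest of the 41 at 0.44.

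With doxorubicin, 8 of 41 genes were at least 2-fold lower in p53-/- than in WT MEFs, against 10.3% of all genes, and none was at least 2-fold higher, against 11.9%. The lower ones were Ctsf (-4.96, or 31.2-fold), Tpp1 (-2.28), Ctsd (-2.05), Naglu (-1.59), Dram1 (-1.58), Ctsh (-1.53), Wipi1 (-1.38) and Gaa (-1.03). In all, 25 of the 17922 genes measured on both arrays had a lower ratio than Ctsf. Gaa was under 2-fold (-0.93) with quantile normalization. In the other direction Ctsa was nearest to 2-fold at 0.98 (0.28 by its dimmer probe), followed by Ctsl at 0.55 and Neu1 at 0.52. Below 0 there were 32 of the 41 genes, against 50% of all genes. Among the 7220 genes above the 75th percentile on all arrays, 56.0% were below 0. Of these bright genes 7.20% were at least 2-fold lower and 5.80% at least 2-fold higher. The medians were -0.72 for the enzymes and -0.59 for the machinery. These ratios share arrays with those for doxorubicin and are given beside them, not as a separate line of evidence.

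Set against each other, the enzymes lay below the machinery in every ratio. The median of the enzymes minus that of the machinery was -0.47 for doxorubicin in WT, -0.33 for doxorubicin in p53-/- MEFs, -0.30 between the untreated genotypes and -0.14 between the treated ones. The gap in p53-/- MEFs rested on the membrane-bound proteins and Sqstm1: without these 5 genes the machinery lay below the enzymes and the gap was 0.10. With the 4 membrane proteins counted among the enzymes, the gap between the treated genotypes was 0.14.

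**Figure D4:**
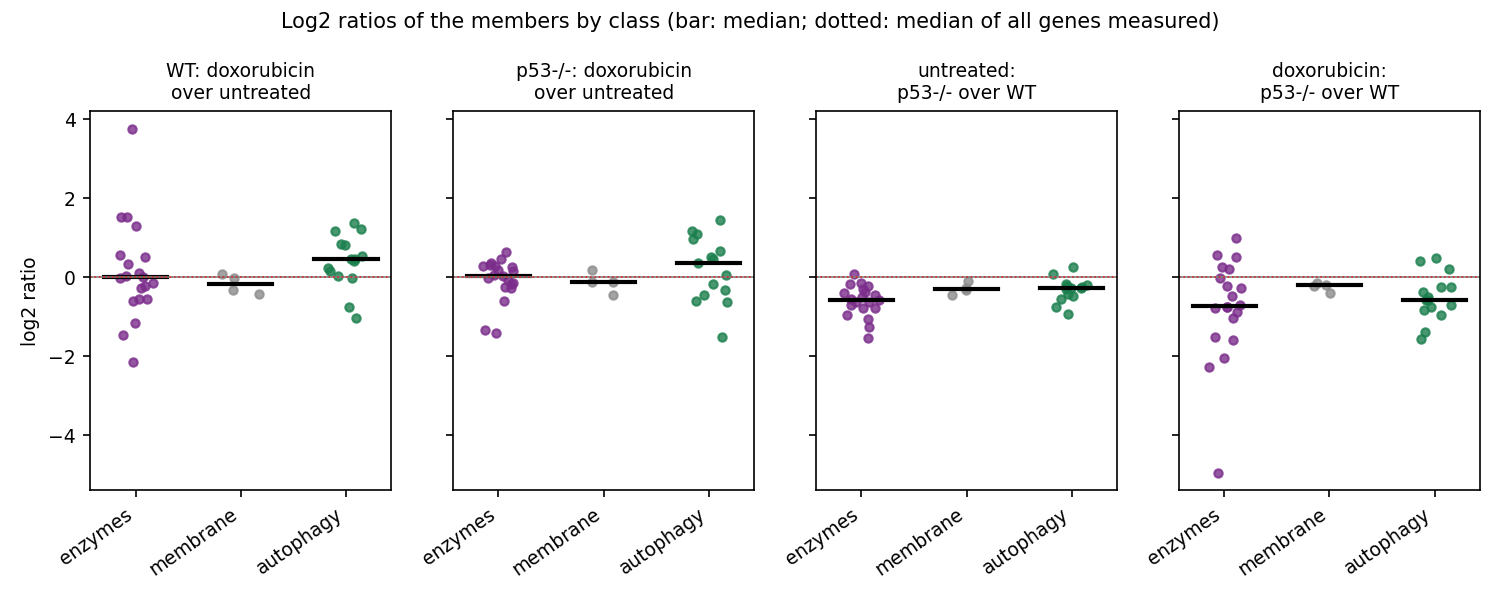
Log2 ratios of the 20 lysosomal enzymes, 4 lysosomal membrane proteins and 15 autophagy genes in the 4 comparisons, 1 point per gene, with the class median as a bar and the median of all measured genes as a dotted line. The enzymes span -2.15 to 3.76 for doxorubicin in WT and -1.41 to 0.63 in p53-/- MEFs, and lie mostly under the dotted line in both comparisons of the genotypes.

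Of the responses to doxorubicin, 5 were higher in WT than in p53-/- MEFs by 2-fold or more, against 8.38% of all genes, namely Ctsf (a difference of 3.71), Dram1 (1.30), Ctsd (1.26), Tpp1 (1.23) and Ctsh (1.12). Another 3 were lower by as much, against 9.86%, namely Ctsa (-1.61), Ctsl (-1.19) and Neu1 (-1.09). Ctsa's dimmer probe gave -0.68, under 2-fold. Of these 8 genes 7 were enzymes, 5 of them cathepsins. The difference was below 0 for 14 of the 41 genes and for 49.1% of all genes. Among the 7220 genes above the 75th percentile on all arrays it was below 0 for 48.6%. Of these bright genes 4.56% had a response at least 2-fold higher in WT, and 4.52% one lower by as much.

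The promoters bear on whether the genes share sequence that TFEB and TFE3 are known to bind. RefSeq promoters of GRCm38.p6 (250 bases before to 50 after the start of a gene) were given for 36 of the 42 genes. The letters CACGTG, the E-box core of the CLEAR element of lysosomal genes and the same on both strands, stood in 13 of the 36 (36.1%) and in 8.09% of all 27025 genes. By class they stood in 8 of 17 enzymes, 2 of 4 membrane proteins, 0 of 2 transcription factors and 3 of 13 machinery genes. The longer GTCACGTG, which holds CACGTG and was searched on both strands, stood in 9 of the 36 (25%) and in 2.55% of all genes. A match describes letters and no binding. As the element is known from lysosomal genes, a higher share in a list of such genes is no independent evidence. Ctsd, Lamp1 and Atg3 had further matches that are not shown. The windows below show matches in genes that rose, fell or stayed under 2-fold with doxorubicin, with CACGTG in capitals, 5' to 3' on the strand of the gene.
Ctsf, chr19:4855076-4855101, plus strand: ccccgtggtcCACGTGcctcgcgtaa
Ctsd, chr7:142387910-142387935, minus strand: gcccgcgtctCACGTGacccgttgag
Ctsa, chr2:164833751-164833776, plus strand: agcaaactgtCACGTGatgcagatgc
Ctsa, chr2:164833768-164833793, plus strand: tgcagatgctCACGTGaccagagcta
Naglu, chr11:101070011-101070036, plus strand: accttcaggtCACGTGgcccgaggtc
Glb1, chr9:114401020-114401045, plus strand: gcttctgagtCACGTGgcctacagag
Lamp1, chr8:13159123-13159148, plus strand: tgccgactggCACGTGaccacatcac
Atg3, chr16:45158748-45158773, plus strand: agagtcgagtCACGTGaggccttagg

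In WT MEFs the 13 genes with CACGTG included Ctsf and Ctsd, which rose, and Ctsa, which fell, and their log2 ratios for doxorubicin ran from -1.46 to 3.76 with a median of -0.01. The 22 measured genes whose promoter lacked these letters had a median of 0.02. In p53-/- MEFs the medians were -0.02 with and -0.09 without them. Between the untreated genotypes they were -0.63 and -0.31. Glb1 had a match 48 bases before the start (counted to the first base of the match). Lamp1 had matches 61, 45, 28 and 15 bases before it. Both genes changed by less than 0.2 on the log2 scale with doxorubicin in either genotype.

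Wider lists gave the same systems beyond the 42 genes. For comparison, 11.0% of all genes rose with doxorubicin in WT MEFs, while 10.4% fell. The same shares for p53-/- MEFs were 9.24 and 6.89%. Of 19 subunits of the V-ATPase, the proton pump that acidifies the lysosome, 17 were measured, with median log2 ratios for doxorubicin of 0.58 in WT and 0.41 in p53-/- MEFs and with 1 that rose in WT (Atp6v1e1) and 1 that fell in p53-/- MEFs (Atp6v0e2). Among 28 other hydrolases and cofactors, 4 rose, among them Man2b1 and Fuca1, and 1 fell (Arsa) in WT MEFs, with a median of 0.13. Of the 27 measured in p53-/- MEFs 1 rose (Fuca1) and none fell, with a median of 0.20. The mannosidase Man2b1 had relative signals of 6.14 and 89.7 in WT and of 4.56 and 8.12 in p53-/- MEFs, log2 ratios of 3.87 and 0.83, and the fucosidase Fuca1 had ratios of 3.06 and 1.07. The doxorubicin-treated WT array was the highest for both, as for Ctsf. In 6 sorting genes the medians were -0.23 and -0.44. In WT MEFs Gnptg, a subunit of the enzyme that tags hydrolases for the lysosome, rose and Sort1, a sorting receptor, fell with a log2 ratio of -1.33.

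Of 34 other autophagy genes, 33 were measured in WT MEFs, where 4 rose and 1 fell (median 0.36), and 34 in p53-/- MEFs, where 6 rose and 1 fell (median 0.37). For all genes the shares that rose were 11.0 and 9.24%. Atg14, Atg101, Wdr45 and Calcoco1 rose in both genotypes, as 3.97% of all genes did, and Nbr1 and Bnip3l in p53-/- MEFs, where Ambra1 fell. Examples are Wdr45, a relative of Wipi1, at 1.24 in WT and 1.58 in p53-/- MEFs, and Calcoco1, a cargo receptor, with 1.49 and 1.44. Bnip3, a mitophagy receptor, fell 2.83-fold in WT and was at a log2 ratio of 0.48 in p53-/- MEFs.

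Markers of leukocytes, cells rich in cathepsins and lysosomes, were examined because they could carry these genes. Of 14 such markers 12 and 13 were well above background in WT without and with doxorubicin, with summed relative signals of 20.3 and 26.7. In p53-/- MEFs they were 12 and 11, with sums of 22.0 and 18.6. Cybb was well above background on none. Ptprc, the pan-leukocyte CD45, had signals of 65, 66, 72 and 104 on the arrays in that order, under the brightest negative control on each array. Cd14 rose in WT MEFs from a signal of 513 to 6020 (log2 ratio 3.74) and was at 0.62 in p53-/- MEFs, and Cd68 was well above background in doxorubicin-treated WT MEFs only, at 211. Itgam made up 17.4 of the highest sum, 26.7. Of the 12 markers measured on both WT arrays 6 were below 0, with a median log2 ratio of -0.07, and Csf1r, Aif1 and Tyrobp were at -0.63, -0.65 and -0.69. The sum was highest on the array where Ctsf, Ctsd, Ctsh and Tpp1 were highest, and its part in their values was not tested. The summed relative signals of the 10 fibroblast markers were 837, 683, 689 and 563, and 4 of the 10 fell with doxorubicin in WT (Lum, Pdgfra, Pdgfrb and Dcn).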

How the data were processed

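RNA of the 4 conditions, 200 ng per sample, was labeled and hybridized by the authors and the arrays were read with Agilent Feature Extraction 10.7.3.1. The deposited intensity of a spot (processed signal) was background-subtracted and detrended within the array by that program and not normalized between arrays; the deposited table of intensities for all arrays held equal values (within 0.001%) at all 44397 spots. The deposited flags, 0 or 1, mark spots well above background, saturated (0 spots) or outliers (145 to 168 per array, left out). The deposited mean and local background intensities served the normexp alternative.

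Here, log2 intensities were averaged over the spots of each probe and taken relative to the array's 75th percentile. The brightest probe over the 4 arrays stood for a gene. A ratio was used only if both arrays marked it as well above background. Precision is limited by the number of arrays, so p-values were not calculated. Full values were given for genes at least 2-fold changed by doxorubicin, for those whose doxorubicin responses differed 2-fold between genotypes, and for Tfeb, Tfe3, Sqstm1, Map1lc3b, Lamp1, Glb1 and Dram1; genes of the wider lists were named for the 2 highest and 2 lowest ratios, and others after their values were seen where few passed 2-fold. Some are not reported here by name. The genes, lists and promoter letters were chosen with earlier results of these data known. Gene names and promoters came from RefSeq (GRCm38.p6). Whether a probe lies in an exon or a UTR was not analysed here.

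The values were recomputed with array median scaling, quantile normalization, normexp in limma (offset 50), dim probes kept, a call on all 4 arrays required, all probes of a gene averaged, the deposited table, thresholds of 1.5-fold and 3-fold, and other class memberships. A test on simulated arrays for the WT comparison found 200 of 200 changed genes among 17546, with 0 false calls, which checks the calculation and not variation between cultures. The planted changes all lay clearly past 2-fold with little noise, so calls near 2-fold were not checked. Python 3.11.15, numpy 2.4.6, pandas 2.3.3, scipy 1.17.1, matplotlib 3.10.9 and R 4.3.3 with limma 3.58.1 were used.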

Additional observations from a re-analysis of the deposited data

Results flagged for a closer look

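Under doxorubicin, 4 of the 41 genes had ratios beyond the spread of repeat spots (0.167 on the log2 scale, or 2 median SDs of a ratio) with opposite signs in the genotypes. This is 9.76% of them, against 17.2% of all 16538 genes. With 1 array per condition, this difference was not tested. For Ctsl the log2 ratio was -0.56 in WT and 0.63 in p53-/- MEFs, a difference of -1.19. For Ctss it was -0.23 and 0.35, a difference of -0.58. For Asah1 it was -0.29 and 0.46, a difference of -0.74, but its other probe gave 0.14 and 0.24, with the same sign in both genotypes. For Wipi1 it was 0.23 and -0.60, a difference of 0.83, but its other probe gave 0.16 and -0.16, within that spread. The signs stayed opposite for Ctsl, Ctss and Asah1 in 7 of 7 alternatives and for Wipi1 in 6 of 7. Some of these alternatives could not change the values of these genes. They are the deposited table, dim probes kept and a call on all 4 arrays required. For Ctsl and Ctss, which had no other probe, averaging the probes could not change them either.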

How the results depend on the processing

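Scaling to the array median shifted the median log2 ratio of all genes for doxorubicin to -0.27 in WT and -0.30 in p53-/- MEFs, the shares of all genes at least 2-fold higher and lower to 7.53 and 15.9% in WT (11.0 and 10.4% before) and to 5.63 and 12.4% in p53-/- MEFs (9.24 and 6.89% before), the enzyme medians to -0.28 and -0.26 and the machinery medians to 0.19 and 0.071. This scaling shifts every log2 ratio of a comparison by the same amount, so the order of the classes and their gaps could not change. Under it Ulk1 (0.93) and Map1lc3a (0.90) in WT and Map1lc3b (0.87) and Sqstm1 (0.80) in p53-/- MEFs were under 2-fold, which left 1 gene that rose in p53-/- MEFs in place of 3. Of 36 values of the 42 genes past 2-fold, 5 fell under it in an alternative, the fifth being Gaa between the treated genotypes with quantile normalization (-0.93, leaving 7 lower genes in place of 8). That normalization also gave 1 gene, in place of 0, that was at least 2-fold above WT in doxorubicin-treated p53-/- MEFs. The gap between enzymes and machinery was 0.10 for doxorubicin in p53-/- MEFs without the conjugated proteins and Sqstm1, and -0.20 and 0.14 between the untreated and the treated genotypes with the membrane proteins among the enzymes. At 1.5-fold, 6 genes rose and 7 fell in p53-/- MEFs (19.4 and 15.9% of all genes), 11 were lower in untreated p53-/- than WT MEFs (8.68%), and with doxorubicin 19 were lower (19.7%) and 1 higher (22.8%). At 3-fold, 1 rose and 1 fell in WT (5.07 and 4.18%), 0 rose and 0 fell in p53-/- MEFs (3.82 and 2.26%), 0 were lower without (0.716%) and 4 with doxorubicin (4.83%). Of 150 recomputed summary values 20 moved by more than the repeat spots or 1.5 times, and 2 of the gaps above changed sign. The deposited table, which held equal intensities, could move none of the 150 values. Nor could the call on all 4 arrays, as 41 genes passed it and Atg4a was measured on none. Array median scaling could not move the gaps. Without a filter the lower genes of untreated p53-/- MEFs were 38 of 42, against 37.5% of all genes (50.3% with the filter). The slide as a block was not run, as there was 1 slide. No paired analysis was possible because each condition had 1 array. Weak signals limit Dram1 in p53-/- MEFs and Atg4a on all arrays.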
